A study of Homo sapiens with 4 samples.

Results

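The last introns of protein-coding genes are the introns that lie just upstream of the final exon, and 189 of them, from 183 genes, were measured deeply enough in nascent RNA of K562 cells to be described one by one. They were chosen from 209481 unique introns that could be placed on the GENCODE 29 annotation. An intron was taken when it was the last of at least 3 introns in every annotated transcript that holds it, was 60 nt or longer, was not overlapped by another intron of the gene with more junction reads, and was covered by at least 5 reads in every sample. Of 13756 such last introns seen in any sample, 13679 were long enough, 8350 of these had no more used competitor, and 189 met the read minimum. Because the choice used junction reads and read numbers, the level of splicing among the members is given as a description. The 67 members with exactly 5 reads in their shallowest sample averaged 66.0% spliced, and the 86 introns left out with 4 reads averaged 53.7%. Another 485 last introns met the read minimum but were overlapped by a more used intron, and these averaged 2.65%.

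A last intron is recognised together with the final exon, which has a splice site on only one side and ends at a polyadenylation signal. U2AF and the U2 snRNP, with its SF3b complex, assemble at the 3′ end of the intron and are known to contact the cleavage and polyadenylation machinery downstream. Removal of the last intron and formation of the 3′ end are coupled in this way. SF3B1 is the largest SF3b subunit and helps the U2 snRNP grip the branch point. The K700E substitution, frequent in myelodysplastic syndromes, is known for allowing the use of 3′ splice sites upstream of the normal ones.

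K562 is an established cell line from chronic myeloid leukaemia. There were 2 samples with wild-type SF3B1 (WT) and 2 with SF3B1 K700E, all harvested 4 days after 1 µg/ml doxycycline was added to induce the modified allele. The WT samples thus received doxycycline too. RNA came from chromatin prepared in α-amanitin, was depleted of poly(A)+ and ribosomal RNA, carried an adapter ligated to its 3′ ends and was read as long reads. Nothing in the labels says whether replicates were separate cultures, so p-values reflect the spread of these libraries alone, which could be technical. The labels call the cells "Immortalized epithelial cells". A list of 12 K562 genes drew 0.288% to 0.457% of all read-intron overlaps and 8 of the 12 had reads in every sample, although KLF1 and EPOR were at 0. A list of 8 epithelial genes drew 0.00506% to 0.00890%. Of these, 3 had reads in every sample, and CLDN4 and GRHL2 were at 0 in every sample. In the K562 list TFRC had the most overlaps, 2816 and 3571 in WT replicates 1 and 2 and 730 and 1716 in K700E replicates 1 and 2. In the same order GATA1 had 4, 11, 6 and 10, and the epithelial KRT18 had 49, 21, 7 and 31. Read-intron overlaps totalled 1346733 and 1185006 for WT replicates 1 and 2, and 459681 and 909621 for the K700E replicates.

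For each intron, the splicing efficiency is the share of reads over the intron that carry its exon-exon junction, in percent. Reads over the 189 members came to 5361 for WT replicate 1, 3850 for WT replicate 2, 1743 for K700E replicate 1 and 2581 for K700E replicate 2, the order kept for all values by sample below. The median member had 20, 14, 7 and 11 reads, and K700E replicate 1 was the shallowest sample, alone or tied, for 131 members. WT replicate 1 stood apart from the other samples in the opposite way, with the most reads and the highest mean efficiency of last and of internal introns, and the main genotype values are therefore given with and without it.

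The annotation showed that "last" covers different kinds of intron. For 134 members no annotated intron of the gene lies further downstream, and these are called gene-terminal. The other 55 end a shorter transcript of a gene that goes on, and its longer transcripts splice beyond them. Among those 55, 12 have another annotated intron of the same gene, not itself only last, within 12 nt at both ends. The deposited junction counts of the paired introns were identical in every sample. The pairs were therefore not resolved by the counting, and the value of these 12 may be that of an internal intron. DDX3X, RPLP0, CHD4, INTS4, NUP188 and HSPD1 are among them. In 139 members the intron belongs to a transcript that APPRIS marks as principal, meaning the main protein-coding form of the gene.

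The exon-exon junctions that report splicing of 6 members follow, 5′ to 3′, read from the GENCODE 29 transcripts. They are shown because the values of these introns are given sample by sample in the text below. Lower case marks the end of the upstream exon and capitals mark the start of the last exon, and coordinates are those of the intron on GRCh38.
TFRC, chr3:196052185-196053417, minus strand: gatcgtgtcatgagaGTGGAGTATCACTTC
FTL, chr19:48966407-48966582, plus strand: cgcacggacccccatCTCTGTGACTTCCTG
EEF1A1, chr6:73517935-73518025, minus strand: tccacctttgggtaaGTCGCTTTGCTGTTC
EEF1A1, chr6:73517935-73518029, minus strand: actatccacctttggGTCGCTTTGCTGTTC
PTBP3, chr9:112223984-112224132, minus strand: ttttaaattctttcaGAAAGATCGCAAAAT
RPSA, chr3:39412062-39412273, plus strand: agcaattccctactgAAGACTGGAGCGCTC
In each of them the last exon holds the stop codon. The introns of EEF1A1 share their 3′ splice site and differ by 4 nt at the 5′ splice site, so the shorter intron leaves gtaa in the exon, and their junction counts were identical in every sample.

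Intron sequence could be read where an annotated exon of another transcript runs across the whole intron, which held for 41 members. All 41 end in AG, 38 begin with GT and 2 with GC. Their 9 bases around the 5′ splice site matched the textbook sequence CAGGTAAGT at a median of 6 positions, the same median as in 310 internal introns read in the same way. Bases 4 to 20 before the intron's end were pyrimidines at a median of 70.6%, again the median of the internal introns. A second AG stood 8 to 32 bases before the intron's end in 18 of 41, or 43.9%, against 50% of the internal introns. These 41 averaged 29.6% spliced and the 310 internal introns 55.5%, and both sets are by construction introns that some annotated transcript keeps. The last 30 bases of 5 of them, all in coding genes with the stop codon in the last exon, show the range from little to mostly spliced, with AG in capitals.
SRPRA, 27.8% spliced over 4 samples: gttgatgggctgtcctctttctccacttAG
RPSA, 36.1%: tgatggctttttttggtattctcttaacAG
HMGN2, 36.9%: cattgcattaatttgtctgttttcttttAG
H2AFZ, 42.7%: aagtagaattaattcctgtcactctcctAG
TAGLN2, 81.8%: tcctctaaccaccactcccttgtcacccAG
Their donors read aagGTaaac, ctgGTatgt, cagGTataa, gtgGTatgt and taaGTaagt in the same order, with the intron's first 2 bases in capitals. Of these, TAGLN2 matched the textbook donor at 7 positions and so did RPSA, while SRPRA, HMGN2 and H2AFZ matched at 6.

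Pooled over their kinds, last introns were spliced less completely than internal and first introns chosen with the same filters. On average they were spliced to 68.9% and 60.1% in WT, against 57.3% and 59.3% in K700E. Internal introns chosen with the same filters (n = 8216) stood at 87.4%, 82.4%, 79.8% and 83.8%, and first introns (n = 451) at 80.5%, 81.0%, 77.8% and 83.2%. In each of the 4 samples the last introns were lowest. The spread between last introns was also wider. Averaged over the 4 samples, 20 members (10.6%) were below 5% and 20 (10.6%) were at 95% or more. Among internal introns these shares were 0.572% and 27.7%, and among first introns 3.77% and 35.9%.

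**Figure D1:**
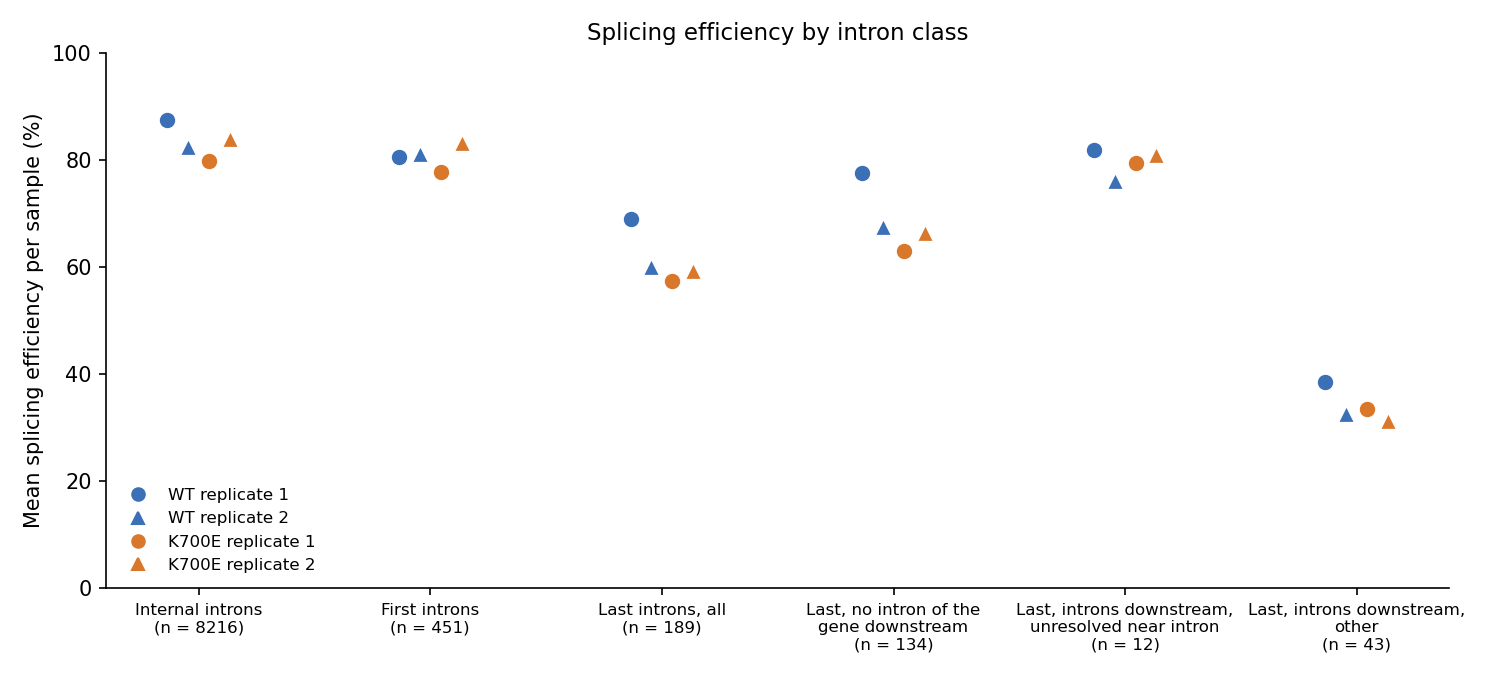
Mean splicing efficiency in percent (vertical axis) of 6 sets of introns (horizontal axis), with 1 point per sample; blue is WT, orange is K700E, circles are replicate 1 and triangles replicate 2. Gene-terminal last introns sit between 63.0% and 77.5%, and last introns with further introns downstream and no unresolved neighbour between 31.2% and 38.5%.

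**Figure D2:**
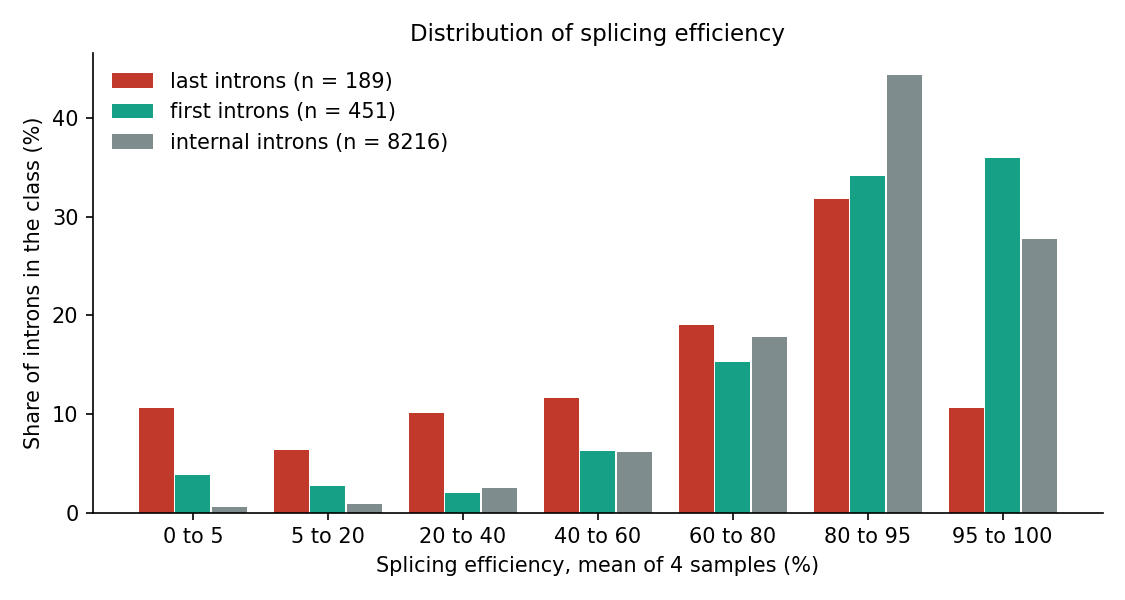
Share of each class of introns in percent (vertical axis) by mean efficiency over the 4 samples in percent (horizontal axis, ranges of unequal width, the last one including 100). Last introns fill the range below 40% more than internal introns do and reach 95% or more in 10.6% against 27.7%.

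The kinds of last intron differed more than the genotypes did. Gene-terminal introns averaged 77.5%, 67.5%, 63.0% and 66.3% in WT replicates 1 and 2 and K700E replicates 1 and 2. The 43 members with introns downstream and no unresolved neighbour averaged 38.5%, 32.6%, 33.4% and 31.2%. The ranges of these sets over the samples did not overlap. The 12 unresolved ones were at 81.9%, 76.1%, 79.4% and 81.0%, near the internal introns. Members of a principal transcript averaged 73.3% ± 6.86 in WT and 65.7% ± 1.07 in K700E (SD of 2 samples each), and the 50 others 40.0% ± 4.49 and 37.8% ± 2.21.

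Mean efficiency also differed with the annotation of the stop codon. Where the stop codon is in the last exon (104 members), the mean was 69.8% ± 7.84 in WT and 64.2% ± 1.58 in K700E. For 24 members no stop codon is annotated, and 23 of these have introns of the gene downstream. The 24 averaged 42.1% ± 2.18 in WT and 41.6% ± 0.600 in K700E. The 20 members downstream of the stop codon, which are introns of the 3′ untranslated region, averaged 37.4% ± 4.70 and 33.5% ± 2.56. In textbook terms, an exon junction far enough behind a stop codon marks an mRNA for nonsense-mediated decay. Among them HNRNPA2B1, an RNA-binding protein gene, had the deepest reads of all members by its shallowest sample, with 44, 51, 44 and 59. Its intron was spliced in 6.82%, 1.96%, 6.82% and 1.70%, while the gene's 4 measured internal introns averaged 63.2%. Not every such intron was low. In CCNG1, cyclin G1, all 97, 31, 11 and 13 reads were spliced, and NRAS, a small GTPase, stood at 90.5%, 40.0%, 83.3% and 50%.

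At the top, 6 members were spliced in all reads of every sample, which are the introns of POTEE, TFPI, CCNG1, CIP2A, C6orf62 and NUDCD1. POTEE belongs to a family of near-identical copies and its intron also lies in PLEKHB2, so its reads are uncertain. TFPI, an inhibitor of tissue factor, had 47, 18, 15 and 40 reads. At the bottom, 9 members had no spliced read in any sample, in CTBP2, EIF4G2, TUBA1B, RAP1B, FBXO22, EIF1, IMMP2L, NUP214 and 1 of the 2 members in ZNF12. EIF1, which helps the ribosome pick the start codon, had 0 of 117, 0 of 23, 0 of 8 and 0 of 35 reads spliced. With 3 divided by the number of reads as the limit, this allows shares of up to 2.56%, 13.0%, 37.5% and 8.57%. TUBA1B, an α-tubulin gene, had 0 of 36, 51, 9 and 27 reads. The members of EIF1, TUBA1B and EIF4G2 are each spanned by an annotated transcript that retains them. Over the 20 members spanned by a transcript that the annotation classes as a retained intron, the mean was 40.3% ± 3.75 in WT and 33.1% ± 1.77 in K700E. The other 169 averaged 67.4% ± 6.53 and 61.3% ± 1.33, and they include members spanned by transcripts of other classes.

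Longer last introns were spliced more completely. In the shortest tertile (61 to 365 nt, 63 members) the mean was 50.3% in WT and 44.4% in K700E, in the middle tertile (366 to 1610 nt) 64.4% and 57.7%, and in the longest (1659 to 29219 nt) 78.8% and 72.8%. The order held in each of the 4 samples. Internal introns within the same 3 ranges of length followed the same order, with 74.3% and 69.3%, 84.4% and 80.9%, and 90.5% and 88.5%. Gene-terminal members were below these internal introns in each range, at 58.4% and 50.3%, 75.7% and 67.5%, and 81.9% and 74.7%. Across members the Spearman correlation of length with efficiency was 0.385 (n = 189), across gene-terminal ones 0.408 (n = 134) and across internal introns 0.402 (n = 8216). These points share libraries and some share genes, so the values are descriptions. Spearman correlations over all members were 0.339 with the length of the last exon and 0.272 with the number of introns, and over gene-terminal members 0.288 and 0.139. With the number of reads the value was -0.002 over all members.

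The last intron was next compared with the internal introns of its own gene, which takes differences between genes out. In 141 genes with 820 measured internal introns, the last intron was lower by a mean of -7.64 and -10.8 percentage points in WT and -11.4 and -12.4 in K700E. All 4 samples lay below 0, and the exact sign-flip permutation test gave p = 0.13 (two-sided, n = 4), the smallest it can give. The 4 values share their genes and introns, which were chosen partly by junction reads. This p therefore does not measure the spread between genes. Of the 141 genes, the last intron was lower in 80, higher in 60 and equal in 1. With gene-terminal members only (105 genes, 595 internal introns) the gap was smaller, at -3.97, -5.52, -8.46 and -9.26 points. The mean hides a spread in both directions. Over these 105 genes the last intron was lower in 59, higher in 45 and equal in 1, and the median gap was -2.56 points. It was lower in every sample in 29 genes and higher in every sample in 21. At 10 or more reads in every sample, 13 genes were left, with gaps of 1.16, -4.13, -6.61 and -2.55 points. The median gap over these 13 genes was above 0, at 3.76 points, with the last intron lower in 6 and higher in 7. In 98 genes the gene-terminal member is also in a principal transcript. Over these, at 5 reads, the mean gap was -4.77 points and the median -1.41, with the last intron lower in 53 and higher in 44.

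**Figure D3:**
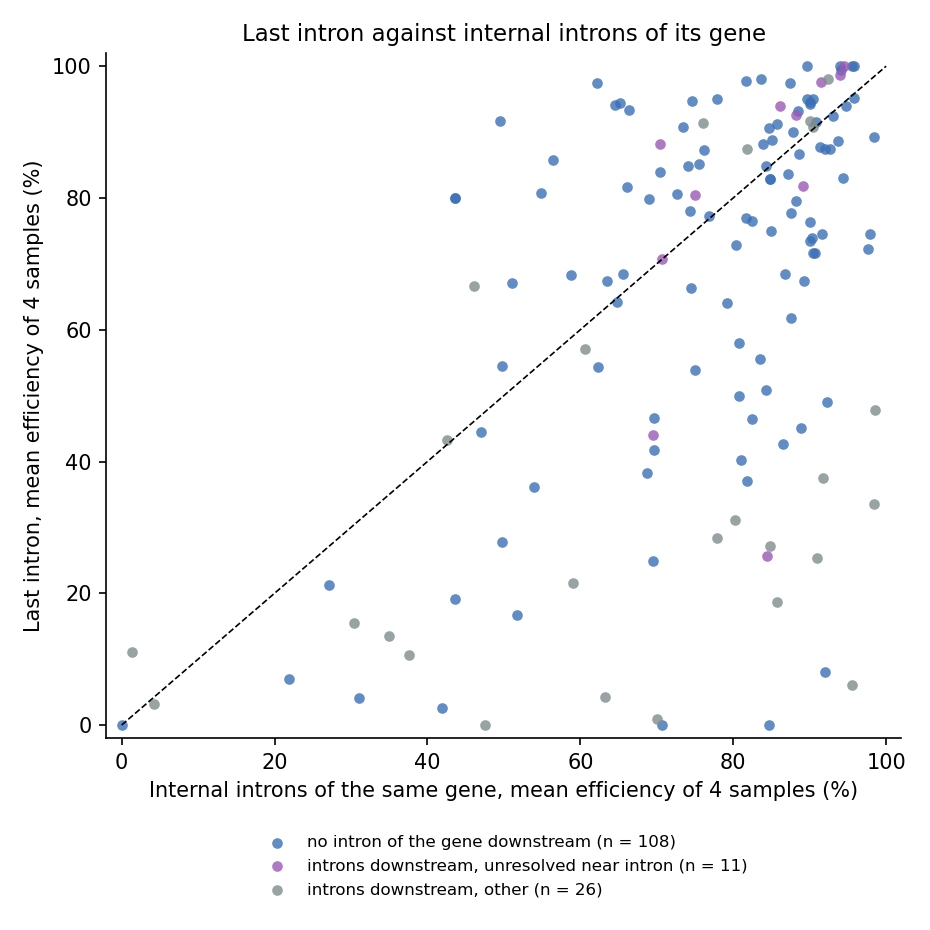
Mean efficiency over 4 samples of the last intron (vertical axis, percent) against that of the measured internal introns of its gene (horizontal axis, percent), 1 point per member, with the line of equality dashed and colours for the kind of last intron. Points lie on both sides of the line, and those far below it include HNRNPA2B1 (4.32% against 63.2%).

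**Figure D4:**
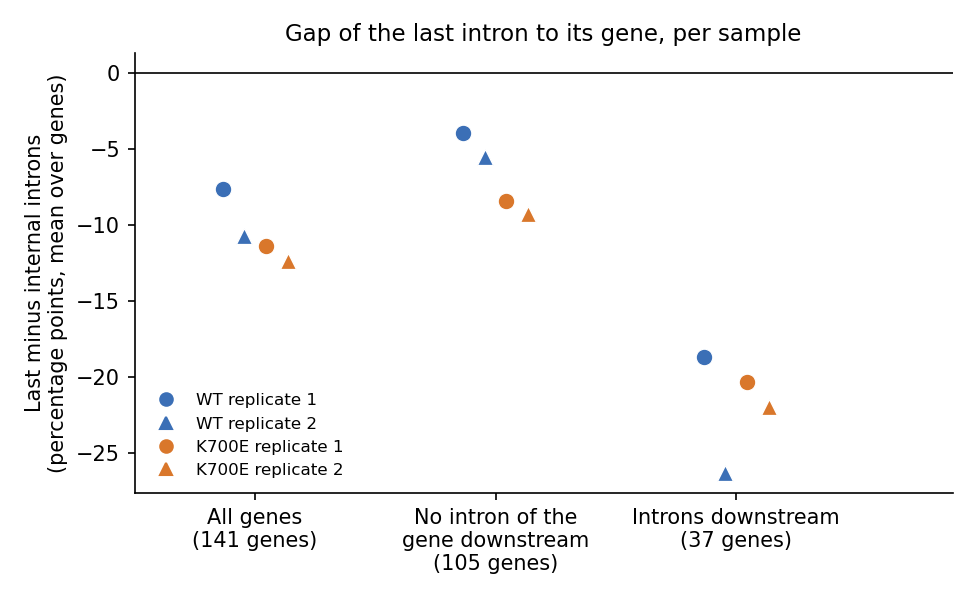
Gap of the last intron to the internal introns of its gene in percentage points (vertical axis, mean over genes) for all genes, for genes whose member is gene-terminal and for genes with introns downstream (horizontal axis), 1 point per sample. The 12 points are below 0, and among gene-terminal members both K700E samples are below both WT samples.

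Single genes show how far the gap can go. TFRC, the transferrin receptor that imports iron, had 161, 111, 30 and 24 reads over its last intron. It was spliced in 98.8%, 95.5%, 86.7% and 95.8% of them, above its 6 internal introns in every sample, by 4.32, 3.14, 2.57 and 6.52 points. FTL, the ferritin light chain that stores iron, had 53, 86, 22 and 62 reads and stood at 71.7%, 69.8%, 59.1% and 72.6%, so that its groups overlapped. ARPC4, a subunit of the actin-nucleating Arp2/3 complex, was the reverse of TFRC. Its gene-terminal intron was spliced in 5.77%, 4.04%, 10.0% and 12.5% of 52, 99, 10 and 16 reads, and its 1 measured internal intron averaged 92.1%. The intron also lies in ARPC4-TTLL3, a gene on the same strand, and the reads of the 2 genes cannot be told apart. ARPC4 was picked with its values in view. In MAT2A, which makes the methyl donor S-adenosylmethionine, the last intron stood at 18.2%, 55.8%, 0% (of 5 reads) and 25.9%, and the 3 measured internal introns averaged 69.5%.

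Reads were also fewer over the last intron than over the rest of the gene. Over gene-terminal members with measured internal introns (n = 108), reads on the last intron were a median of 76.7% of the mean over the gene's internal introns, and 78 of the 108 were below 100%. Over the 37 members with introns downstream the median was 92.4%. The part of this difference in coverage in the gap was not tested.

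Between genotypes, last introns averaged 64.5% ± 6.24 in WT and 58.3% ± 1.37 in K700E (SD of 2 samples each), a difference of -6.20 percentage points. Both K700E samples lay below both WT samples, which gives the smallest p the design allows (exact permutation test, two-sided, p = 0.33). The difference rested mainly on WT replicate 1: without it the difference was -1.79 points, and without WT replicate 2 it was -10.6 points. It was -1.48 points over the 30 members with at least 10 reads in every sample. Internal introns differed by -3.11 points (exact permutation test, p = 0.667), also with WT replicate 1 highest, and by -0.611 points without it, and first introns by -0.295 points (p = 1, same exact permutation test). The gap of the last intron to its gene differed by -2.70 points between the genotypes over all members and by -4.12 points over gene-terminal ones (exact permutation test, p = 0.33 for both), and without WT replicate 1 the first of these was -1.14 points. At 10 or more reads in every sample its direction turned, to 2.15 points.

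By kind, gene-terminal members had 72.5% ± 7.07 in WT and 64.7% ± 2.35 in K700E (SD of 2 samples each), and members with introns downstream 45.0% ± 4.19 and 42.8% ± 1.01. Without WT replicate 1 the difference in gene-terminal members was -2.82 points, and in members with introns downstream its direction turned, to 0.705 points. In members of a principal transcript it was -2.76 points without that sample and in those of none 0.903 points. Where the stop codon is in the last exon it was -0.0552 points, and where it is upstream -0.602 points. The 41 members whose stop codon differs between transcripts went from 77.4% ± 5.28 to 65.2% ± 0.719, with sample values of 81.1%, 73.7%, 64.7% and 65.7%. In that set K700E lay below WT by more than the spread within either genotype, and by -8.43 points without WT replicate 1, but the set is 1 of several examined. Whether the genotype difference itself differs between the kinds was not tested.

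Of 19467 introns with at least 5 reads in each sample, the 15616 with both spliced and unspliced reads were then tested for a change in the odds of being spliced, with edgeR's quasi-likelihood test and Benjamini-Hochberg adjustment over all of them. It called 4 introns (0.0256%), 1 in MALAT1 and 3 in ADGRV1, and none of them was a last intron of the set. Of the 189 members 174 could be tested, since 15 were spliced in all reads or in none, and the smallest adjusted p was 1.00 (edgeR). At an unadjusted p under 0.05 there were 8 members (4.6%), all 8 lower in K700E, against 348 (2.23%) of all introns tested. That count depended on single samples and on depth: edgeR gave 5 members when WT replicate 1 was left out, 14 for WT replicate 2, 7 for K700E replicate 1 and 2 for K700E replicate 2. It gave 2 of 25 members at 10 reads in every sample and 0 of 6 at 20 reads. The 8 include both EEF1A1 introns, which report the same reads, and the directions among the 348 are not given here. On the same unadjusted scale, edgeR with an estimated dispersion gave 3 members (1.72%) against 1.77% of all introns, DESeq2 3 (1.72%) against 1.54% and limma 14 (8.05%) against 5.26%. None of these called a member after adjustment. Both K700E samples lay below both WT samples in 41 of the 174 members (23.6%), against 17.7% of all introns tested, and above in 15 (8.62%) against 9.52%. The median difference over all 189 members, including the 15 not tested, was -2.78 points. Over all introns tested, a set without such introns, it was -2.01 points.

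Among the 8, the introns of EEF1A1 had the most reads. EEF1A1 encodes the factor that brings aminoacyl-tRNA to the ribosome, and its last introns had junctions in 90.2% and 92.6% of 235 and 122 WT reads and in 77.8% and 70.7% of 18 and 82 reads in K700E. The groups did not overlap. The log2 odds ratio, K700E over WT, was -1.98 ± 0.80 (SE), with an unadjusted p of 0.0133 and an adjusted p of 1.00 (edgeR), and both annotated introns report the same reads. The gene's 2 measured internal introns went the same way, averaging 91.1% in WT and 78.6% in K700E.

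ATP5F1A, the α subunit of the mitochondrial ATP synthase, was spliced in 95.8% and 35.7% of 24 and 14 reads in WT and in 0% and 16.7% of 6 and 6 reads in K700E. The groups did not overlap, but the WT samples were far apart. The log2 odds ratio was -4.63 ± 1.68 (SE), adjusted p = 1.00 (edgeR). Leaving out WT replicate 1 gave -2.34, WT replicate 2 -7.53 and K700E replicate 2 -7.08. GTF2H3, a subunit of the repair and transcription factor TFIIH, showed a like order at 100%, 55.6%, 20.0% and 10.0% of 9, 9, 5 and 10 reads, with a log2 odds ratio of -4.30 ± 1.73, which became -2.87 with WT replicate 1 left out and -8.75 with WT replicate 2 left out. PTBP3, a paralogue of the splicing repressor PTBP1, stood at 87.0%, 71.4%, 60% and 28.6% of 46, 21, 5 and 14 reads. Its log2 odds ratio was -2.93 ± 1.22 and was -1.62 without K700E replicate 2. The remaining 3 genes were XPO1, the nuclear export receptor, MATR3, a nuclear matrix RNA-binding protein, and PEX19, which carries peroxisomal membrane proteins, at -2.68, -3.06 and -3.09. The intron of PEX19 also lies in AL139011.2 on the same strand.

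In the other direction the 5 members with the smallest p among those without overlap were in STEAP1B, LMBR1, ANKRD27, NOTCH2NLA and HSPD1, and none reached an unadjusted p of 0.05. All 5 have introns of their gene downstream, and those of ANKRD27 and HSPD1 are unresolved from a neighbour. STEAP1B went from 5.26% and 4.30% of 19 and 93 reads in WT to 10.3% and 24.5% of 39 and 49 reads in K700E, a log2 odds ratio of 2.20 ± 1.17 (edgeR, unadjusted p = 0.0595, adjusted p = 1.00), and 1.26 without K700E replicate 2. HSPD1, a mitochondrial chaperonin, stood at 16.7%, 12.5%, 33.3% and 40.0% of 30, 8, 6 and 15 reads. NOTCH2NLA and NPIPB12 belong to families of near-identical copies whose reads may be split between copies.

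**Figure D5:**
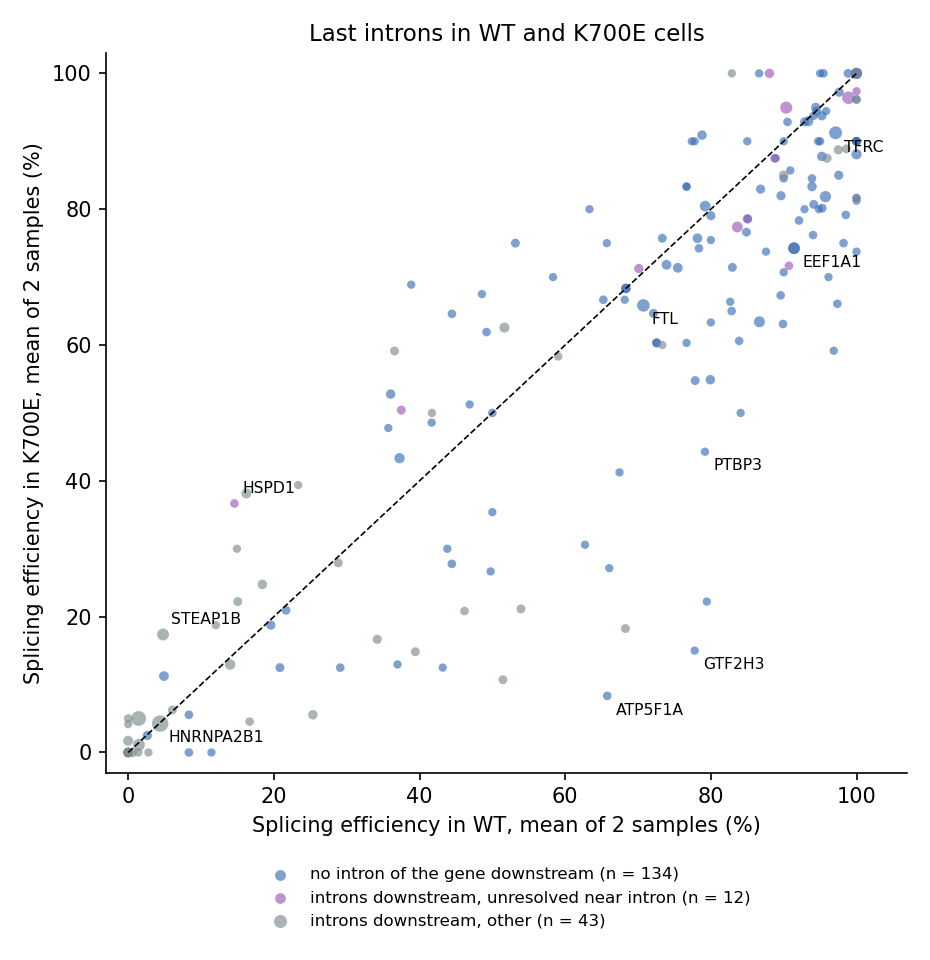
Efficiency of each of the 189 last introns in WT (horizontal axis, mean of 2 samples, percent) and K700E (vertical axis, mean of 2 samples, percent), with larger points for more reads in the shallowest sample, colours for the kind of last intron and the line of equality dashed. The mean was lower in K700E in 119 members and higher in 50. Over the 15616 introns tested it was lower in 9231 and higher in 6320. The named introns farthest below the line, ATP5F1A and GTF2H3, had as few as 6 and 5 reads in a sample.

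Genes that act in splicing themselves gave 10 members, out of a list of 76 spliceosome, SR protein and hnRNP genes. Their last introns averaged 35.2% in WT and 30.7% in K700E, and none was called. Of the 10, 3 were lower in both K700E samples and 2 higher in both, against 17.7% and 9.52% of all introns tested. The median difference was -0.936 points. The difference of the means was -4.55 points and, without K700E replicate 2, -2.79 points. Averaged over the 4 samples they ranged from 1.30% to 88.1%, and 4 of the 10 are gene-terminal. SRSF1, an SR protein that activates exons, was spliced in 1.12%, 1.82%, 0% and 2.27% of 89, 55, 19 and 44 reads. This SRSF1 intron is not gene-terminal, since annotated introns of the gene lie further downstream. RBM39, an SR-related protein, stood at 21.7%, 6.25%, 15.4% and 10.5%, and HNRNPA1 at 15.0%, 35.7%, 11.1% and 0%. The introns of SRSF1 and HNRNPA1 also lie in AC015813.2 and AC078778.2, genes on the same strand whose reads cannot be told apart from theirs. At the other end SRSF5 reached 87.5%, 90.0%, 83.3% and 91.7%, in an intron not resolved from its neighbour, and U2SURP, a U2 snRNP-associated protein, 93.8%, 100%, 58.3% and 60%. SRRM2, a scaffold of nuclear speckles, was at 15.8%, 16.7%, 54.5% and 21.7%, with both K700E samples above both WT samples and 11 reads behind the highest value.

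The other groups were small. The last introns of 3 of 79 ribosomal protein genes passed the read minimum, with means of 54.8% in WT and 37.3% in K700E. These differed by -17.4 points, or by -10.5 if WT replicate 1 is left out. All 3 means were lower in K700E and none was called. RPSA stood at 59.5%, 29.4%, 16.7% and 38.9% of 37, 34, 6 and 18 reads, RPL10A at 38.2%, 20.0%, 0% and 25.0% and RPLP0 at 87.5%, 93.9%, 83.3% and 60%. Of these, the groups overlapped in RPSA and RPL10A. The 4 members on the list of translation factors are the EEF1A1 pair, EIF1 and EIF4G2, and they averaged 45.7% and 37.1%. EIF1 and EIF4G2 had no spliced read in any sample. The difference is thus that of the EEF1A1 pair, which shares its reads. Many genes of these groups have processed copies elsewhere in the genome, which could take part of the reads.

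Of the oxidative phosphorylation genes, SDHC and ATP5PB joined ATP5F1A, and the 3 averaged 85.3% in WT and 55.7% in K700E. These differed by -29.6 points, or by -16.2 if WT replicate 1 is left out. SDHC, a membrane anchor of succinate dehydrogenase, stood at 100%, 80%, 80% and 90.0%, and ATP5PB, a subunit of the ATP synthase stalk, at 100%, 100%, 60% and 87.5% of 15, 10, 5 and 8 reads. ATP5PB and ATP5F1A were lower in both K700E samples, as were 17.7% of all introns tested, and none of the 3 was called. In the list of 3′ end processing and termination genes, CPSF2, a subunit of the cleavage and polyadenylation factor, was at 55.6%, 42.9%, 66.7% and 57.1% and SCAF8, which binds the RNA polymerase II tail, at 100%, 80%, 80% and 100%. The cytoskeleton list gave 4 members, in ACTG1, ACTR2 and TUBA1B, with means of 59.8% in WT and 50.3% in K700E. The difference of -9.47 points turned to 1.58 without K700E replicate 1. In that list the ACTG1 pair, 1 base apart in length and sharing its reads, was at 73.7%, 71.4%, 42.9% and 77.8%. TCP1, a chaperonin subunit, was at 65.2%, 12.5%, 77.8% and 60% of 23, 8, 9 and 5 reads. With HSPD1 it made up the 2 members on the chaperone list, which went the other way. They averaged 26.7% in WT and 52.8% in K700E, and neither was called. The difference was 26.1 points, 40.3 without WT replicate 1 and 11.8 without WT replicate 2. No last intron of the 59 DNA replication and mitosis genes was among the members.

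Zinc finger genes of the ZNF family gave 17 members. They averaged 60.6% ± 3.25 in WT and 60% ± 0.193 in K700E (SD of 2 samples each) and ranged from 0% to 97.7% over the 4 samples. ZNF12 held both extremes of one gene, with 1 intron at 65.2%, 75%, 62.5% and 80% and the other without a spliced read among 24, 15, 6 and 11. In all, 16 members overlap the body of a further gene on the same strand, whose reads cannot be told apart from theirs, and these averaged 41.0% ± 6.96 and 34.1% ± 1.87. A small RNA gene lies inside 2 members, SNORA25 in TAF1D and MIR7111 in RPL10A, and these members averaged 2.57% and 20.8% over the 4 samples.

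The depth limits what single members can show. In K700E replicate 1, 145 of the 189 members had fewer than 10 reads. For PTBP3 in that sample, 3 of 5 spliced reads give 60% with a 95% Wilson interval from 23.1% to 88.2%. For TFRC in WT replicate 1, 159 of 161 give 98.8% with an interval from 95.6% to 99.7%. Intervals and limits cover counting error only, since the cDNA was amplified and reads are not independent molecules.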

How the data were processed

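Per the submitters' processing notes, reads were handled with cutadapt and minimap2 on hg38 (no versions given in the sources used here). The authors deposited, per transcript intron, the count of reads over the intron, the count of junction reads, and their ratio, which matched the counts within 0.005. Between 87.3% and 87.6% of rows could be placed on GENCODE 29 by transcript, intron number, start and strand. Repeats of an intron in several transcripts were merged, and ratios above 1 (2.23% to 4.16% of rows) were set to 1. The 3′ end position files were not used here.

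Spliced and unspliced reads were tested with edgeR 4.0.16 (quasi-likelihood, dispersion 0, sample terms that absorb depth). DESeq2 1.42.0, limma 3.58.1, an estimated dispersion and other read minimums were alternatives. Tested on simulated data, the fit recovered the size of changes but called few of them. Single values used exact permutation tests (scipy 1.17.1). The members, gene lists and the choice of dispersion were made with earlier results of these data known.

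Named members were the 8 deepest, the 5 with the smallest p per direction without overlap, the extremes among the 6 members with 20 or more reads in every sample, and up to 3 per gene list. Others were named after their values were seen, as were the introns whose ends are printed, since intron sequence could be read for 41 members only.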

Additional observations from a re-analysis of the deposited data

How the results depend on the processing

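Under the alternatives run, the difference between genotypes in the mean of last introns stayed below 0, from -0.867 points at 20 reads to -10.6 points, and leaving out 1 replicate gave -1.79 to -10.6. The gap of last to internal introns over all members stayed below 0, from -3.93 (median over genes) to -19.8 points (reads pooled). Over gene-terminal members its mean was -6.80 points and its median -2.56, and at 10 reads in every sample the mean was -3.03 while the median turned to 3.76. Its difference between genotypes turned to 2.15 points at 10 reads in every sample, and the cause was not tested; leaving out 1 replicate gave -1.14 to -4.26. The count of introns called over all introns, 4, was 0 with an estimated dispersion, 0 with DESeq2 and 0 with limma, and leaving out 1 replicate gave 0 to 10. No last intron was called by any of these fits. Pairing of the samples by replicate number was not seen: the deviations of same-numbered samples correlated at -0.0951 over all introns tested. With few reads on many introns, this value cannot exclude pairing. With a replicate block 2 introns were called, 3 members had an unadjusted p under 0.05 in place of 8 (edgeR), and the genotype differences stayed at -6.20 and -2.70 points (exact permutation test, p = 0.5 for both). Values restricted to gene-terminal members, to resolved introns, to 1 member per gene or to the nearest internal intron were added after seeing the data and changed no direction of these means at 5 reads. Depth limits single members, since 145 of 189 had fewer than 10 reads in K700E replicate 1.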
